A study of Mus musculus with 15 samples.

Results

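6 genes of the pituitary corticotroph were followed in newborn mouse pituitaries that carry either of 2 dwarf mutations. They were chosen by symbol, 6 of the 18193 genes with a probe set of their own on the array, and all 10 of their probe sets were read. They comprise the hormone precursor Pomc, the convertase Pcsk1, the transcription factors Tbx19 and Neurod1, and the hypothalamic hormone receptors Crhr1 and Avpr1b. Whole pituitary RNA of postnatal day 1 was pooled, and each of 15 pools was hybridised to an Affymetrix Mouse Genome 430 2.0 array, 5 pools a group. Prop1df/df mice (strain DF/B) carry the df allele in 2 copies, Pit1dw/dw mice (strain DW/J) carry the Snell dwarf mutation of Pit1 on both alleles, and Pit1+/+ mice (strain DW/J) are wild type at Pit1. All mice were fed a high fat chow, and how many pituitaries made a pool, and of which sex, is not stated in the labels. No wild-type pool of strain DF/B was used here, so genotype and strain cannot be told apart in either comparison of Prop1df/df pools. Both mutants are set against the same Pit1+/+ pools, and the comparison between the mutants reuses the same mutant pools.

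Corticotrophs of the anterior lobe make the precursor pro-opiomelanocortin, encoded by Pomc, and cut it with the convertase encoded by Pcsk1 to release ACTH, which drives the adrenal cortex. Melanotrophs of the intermediate lobe also express Pomc and Tbx19, but they carry Pax7 and cut the precursor further with a second convertase, Pcsk2. Corticotropin-releasing hormone acts on corticotrophs through Crhr1 and vasopressin acts through Avpr1b, and glucocorticoids from the adrenal feed back on Pomc. Neither corticotrophs nor melanotrophs need Pit1, whereas somatotrophs, lactotrophs and thyrotrophs do.

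The starts of Pomc and Pcsk1 are shown because these genes encode the precursor and the enzyme that cuts it, and both were lower in Prop1df/df pools. RefSeq, in build GRCm38.p6, gave a promoter for 5 of the 6 genes. The Pomc promoter lies on the plus strand of chromosome 12 (chr12:3954695-3954994), from 250 bases before the gene's start to 50 after it. Capitals mark, in order, a T-box core (AGGTGTG, the kind of core that Tbx19 reads), a NeuroD-type E-box (CAGATG), an NGFI-B core (AAGGTCA, read by Nr4a receptors) and a TATA box (TATAAA).
Pomc: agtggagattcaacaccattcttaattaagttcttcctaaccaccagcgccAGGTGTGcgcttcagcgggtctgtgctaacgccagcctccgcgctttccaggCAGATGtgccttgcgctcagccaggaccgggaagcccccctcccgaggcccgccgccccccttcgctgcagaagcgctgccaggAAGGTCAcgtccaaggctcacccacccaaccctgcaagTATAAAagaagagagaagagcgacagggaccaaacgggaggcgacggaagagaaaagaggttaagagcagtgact
The Pcsk1 promoter lies on the plus strand of chromosome 13 (chr13:75089607-75089906), and its capitals mark a bicoid-type site (TAATCC, the kind that Pitx factors read) followed by cyclic AMP response cores (TGACG), the first of which belongs to a full element (TGACGTCA).
Pcsk1: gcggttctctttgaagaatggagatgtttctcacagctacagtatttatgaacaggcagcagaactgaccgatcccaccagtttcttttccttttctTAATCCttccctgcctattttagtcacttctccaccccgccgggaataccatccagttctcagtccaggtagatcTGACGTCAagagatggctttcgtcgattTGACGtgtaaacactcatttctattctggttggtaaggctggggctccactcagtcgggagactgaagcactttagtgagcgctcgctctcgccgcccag

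Motifs were searched on both strands, and positions count bases before the start on the plus strand. In Pomc the T-box core began 199 bases before the start and overlaps an E-box (CANNTG) at 200, the NeuroD-type E-box began at 147 and is itself an E-box, the NGFI-B core at 63 and the TATA box at 25. In Pcsk1 the full cyclic AMP response element began at 78 and holds 2 overlapping cores, at 78 and 75, and a further core began at 50. Of 32851 RefSeq promoters of the same length, 5.84% hold the T-box core, 17.2% the NeuroD-type E-box, 4.72% the NGFI-B core, 13.6% the TATA box, 72.3% an E-box of any kind, 7.06% the bicoid-type site, 20.8% the cyclic AMP response core and 1.79% the full element. These matches describe the letters and were not tested for binding.

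The median log2 signal of an array was 4.31 to 4.43, its lower quartile 3.05 to 3.25, and the number of arrays limits the precision. Several pools stood apart. Prop1df/df pools 1, 2 and 3 had growth hormone (Gh) signals of 13.58, 14.07 and 14.03, against 8.99 and 10.24 in Prop1df/df pools 4 and 5. Gh lay between 7.15 and 10.31 in Pit1dw/dw pools and between 14.15 and 14.28 in Pit1+/+ pools. The thyrotroph hormone subunit Tshb split the same way, at 9.83, 9.89 and 9.68 in Prop1df/df pools 1 to 3 against 6.28 and 7.17 in pools 4 and 5. The somatotroph receptor Ghrhr did so too, at 5.98, 7.69 and 7.38 in pools 1 to 3 against 4.77 and 5.06 in pools 4 and 5, and lay between 4.52 and 5.13 in Pit1dw/dw and between 9.45 and 9.85 in Pit1+/+ pools. The labels give all 5 pools 1 genotype, and whether pools 1 to 3 hold that genotype alone was not tested. The neuronal filament gene Prph, a sensory ganglion marker, was above 7 in Prop1df/df pools 3 and 4, Pit1dw/dw pools 2 and 3 and Pit1+/+ pool 3. The genotype field of Pit1+/+ pool 1 names Prop1df/df, against its title, source and strain, and the title was followed. The mutated genes themselves were not analysed here. The sex-linked genes also differed between pools. The X-linked Xist lay at 4.20 and 3.89 in Pit1dw/dw pools 2 and 3 and at 3.69 in Pit1+/+ pool 4, against 8.55 to 11.23 in the other 12, and the Y-linked Eif2s3y lay at 3.05 in Pit1+/+ pool 1. With the Xist level as a covariate, 2, 4 and 0 of the 6 genes passed in the comparisons of Prop1df/df with Pit1+/+, of Prop1df/df with Pit1dw/dw and of Pit1dw/dw with Pit1+/+, as without it. Results of the 6 genes are also given without the 3 high Gh pools, which leaves 2 Prop1df/df pools, and without the 5 high Prph pools.

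**Figure D1:**
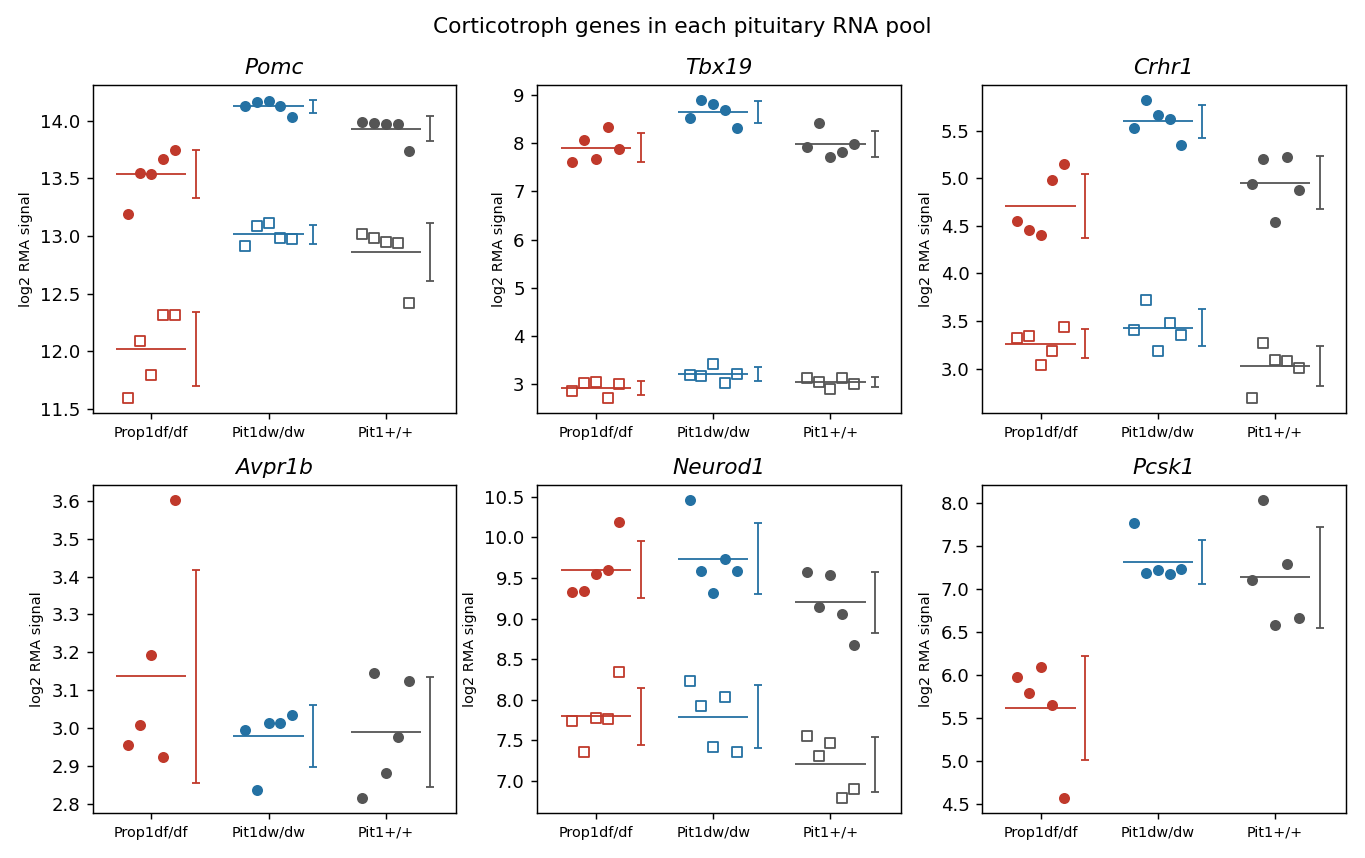
Log2 RMA signal of the 6 genes in each pool, with the groups Prop1df/df, Pit1dw/dw and Pit1+/+ across and pools 1 to 5 left to right within each group. Filled circles are the probe set used for the gene, open squares the gene's other probe set, horizontal lines the group means and side bars 1 SD on either side of the mean. Pcsk1 shows the widest gap, with the 5 Prop1df/df pools at 6.08 or below and the other 10 at 6.58 or above.

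The hormone precursor Pomc was lower in Prop1df/df pituitaries than in either other group, and Pit1dw/dw pituitaries held its highest signals. On the probe set used, Pomc had log2 signals of 13.19, 13.54, 13.54, 13.67 and 13.75 in Prop1df/df pools 1 to 5. It had 14.12, 14.16, 14.17, 14.13 and 14.03 in Pit1dw/dw pools and 13.99, 13.98, 13.97, 13.97 and 13.74 in Pit1+/+ pools. All Prop1df/df pools lay below all Pit1dw/dw pools, and they overlapped the Pit1+/+ pools only through Pit1+/+ pool 5. Pomc averaged 13.54 ± 0.21 in Prop1df/df, 14.12 ± 0.06 in Pit1dw/dw and 13.93 ± 0.11 in Pit1+/+ pools (SD, n = 5 each). The log2 change was -0.59 between Prop1df/df and Pit1dw/dw pools (1.50-fold lower, limma adjusted p = 0.00241). It was -0.39 between Prop1df/df and Pit1+/+ pools (1.31-fold lower, SE 0.105, limma adjusted p = 0.0241). Between Pit1dw/dw and Pit1+/+ pools the log2 change was 0.19 (95% interval -0.03 to 0.42, limma adjusted p = 0.684), although no pool overlapped. In pooled tissue RNA, fewer cells of a type and less RNA per cell cannot be told apart, here and in every comparison that follows. Signals are also relative to the other RNA of a pool. Of 5 measured markers of the Pit1 lineage, 5 fell in Pit1dw/dw and 4 in Prop1df/df against Pit1+/+ pools. Gh had a log2 change of -5.40 in Pit1dw/dw pools. The part of that loss in the levels of other genes was not tested.

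Pomc lies at the top of the array's scale. Its probe set was the brightest of all in each of the 5 Pit1dw/dw arrays. It had rank 3 in 4 Pit1+/+ arrays and rank 4 in the other, and between ranks 2 and 19 in Prop1df/df arrays. The scale has an upper limit, so a difference in this range may be understated. Normalising the arrays by quantiles a second time left a log2 change between Prop1df/df and Pit1+/+ pools of -0.05 (limma adjusted p = 0.854). That step sets a value by its rank on the array, and the Pomc ranks of these groups overlapped. It therefore cannot show the size of a difference in signal. The second probe set of Pomc, which reads lower on the scale, had 11.59, 12.09, 11.80, 12.31 and 12.32 in Prop1df/df pools, against 12.91, 13.09, 13.12, 12.98 and 12.97 in Pit1dw/dw pools and 13.02, 12.99, 12.95, 12.94 and 12.42 in Pit1+/+ pools. There the Prop1df/df pools lay below every pool of both other groups. Its log2 change was -0.99 between Prop1df/df and Pit1dw/dw pools (1.99-fold lower, limma adjusted p = 0.000712, adjusted over all probe sets). In Prop1df/df against Pit1+/+ pools it was -0.84 (1.79-fold lower, limma adjusted p = 0.00235), and between Pit1dw/dw and Pit1+/+ pools 0.15 (limma adjusted p = 0.944).

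Whether the fall of Pomc passed depended on which pools were kept. On the probe set used, the Pomc call against Pit1+/+ was lost when Prop1df/df pool 1 (limma adjusted p = 0.0557) or Pit1+/+ pool 1 (0.0586), 2 (0.0562) or 4 (0.0562) was left out. The 3 Prop1df/df pools with high Gh were also the 3 lowest of their group in Pomc. Without them the log2 change was -0.22 against Pit1+/+ (limma adjusted p = 0.357) and -0.42 against Pit1dw/dw (limma adjusted p = 0.0936), and the second probe set gave -0.55 (0.104) and -0.70 (0.0455) over all probe sets. Without the 5 pools with high Prph the second probe set still passed, at -0.84 (limma adjusted p = 0.0338) and -0.95 (0.0383), whereas the one used gave -0.43 (0.106) and -0.60 (0.0672).

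The melanotroph markers Pax7 and Drd2 were, like Pomc, lower in Prop1df/df pools. The intermediate lobe factor Pax7 had 5.45, 6.07, 6.10, 6.0 and 6.22 in Prop1df/df pools, between 8.04 and 8.40 in Pit1dw/dw pools and between 7.95 and 8.47 in Pit1+/+ pools. It was lower in Prop1df/df pools by a log2 change of -2.26 against Pit1dw/dw (limma adjusted p = 7.22e-08) and -2.28 against Pit1+/+ (limma adjusted p = 7.59e-08), and differed by -0.02 between Pit1dw/dw and Pit1+/+ pools. The second Pax7 probe set, dim at a mean of 3.54, gave -0.68 against Pit1dw/dw (limma adjusted p = 0.0247) and -0.43 against Pit1+/+ (0.145). The dopamine receptor Drd2, which restrains melanotroph secretion and is also made by lactotrophs, fell by 1.68 and 1.60 on the same log2 scale (limma adjusted p = 0.000478 and 0.000589). Of the 4 markers listed 3 were measured, and Rbfox3 did not pass. Their summed level, as log2, lay between 6.49 and 8.42 in Prop1df/df, 8.78 and 9.18 in Pit1dw/dw and 8.53 and 9.47 in Pit1+/+ pools. That sum includes Rbfox3, which ranged from 4.21 to 7.91 in Prop1df/df, 5.53 to 7.37 in Pit1dw/dw and 4.64 to 8.11 in Pit1+/+ pools. In Prop1df/df pools Pax7 reached at most 6.22 and Drd2 at most 5.40, so the upper end of the sum there came mostly from Rbfox3. The part of these 3 markers in the Pomc result was not tested. Pax7 and Drd2 passed in all 24 alternatives, the sets without the high Gh or high Prph pools included. Drd2 has a single probe set, so settings that choose or average probe sets could not alter its log2 change.

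**Figure D2:**
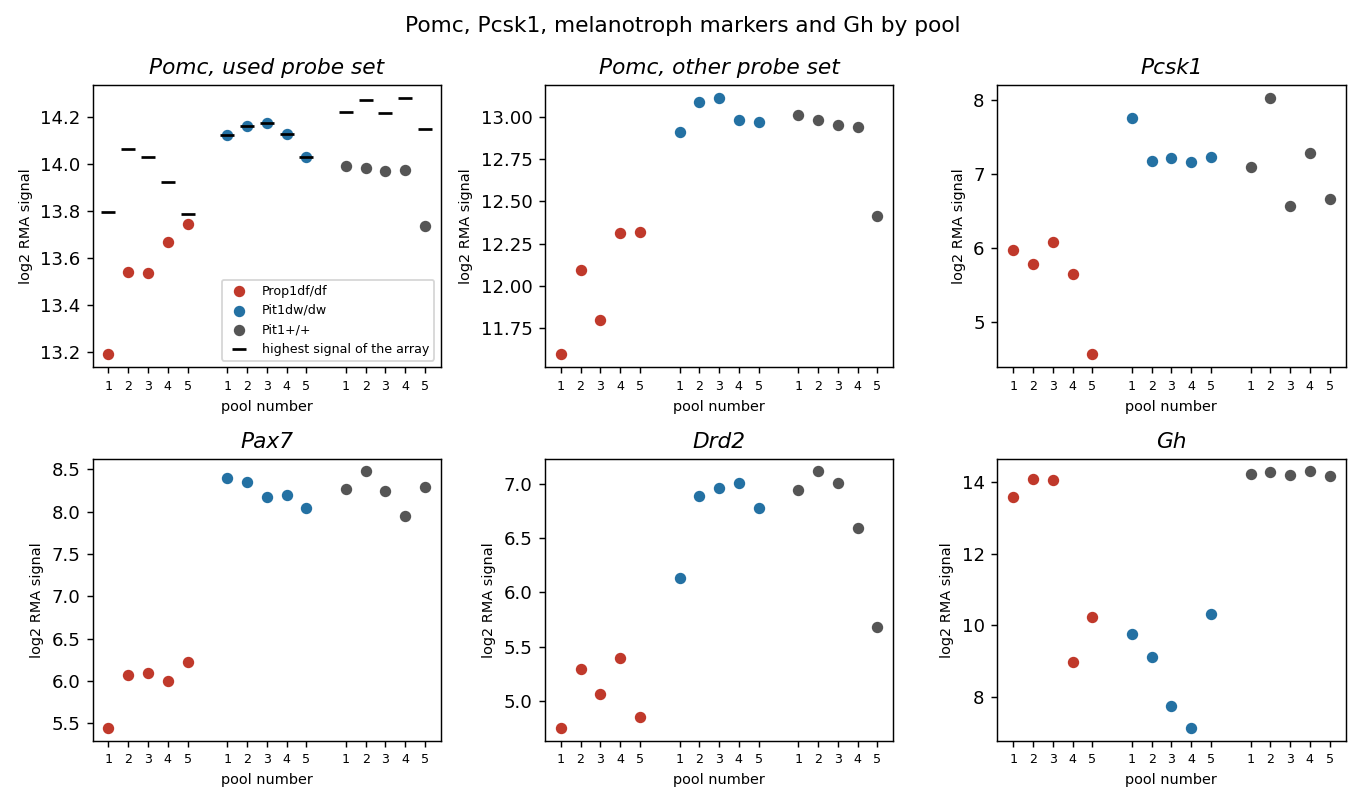
Log2 RMA signal of both Pomc probe sets, Pcsk1, the melanotroph markers Pax7 and Drd2, and Gh, with pool number 1 to 5 across within each group (red Prop1df/df, blue Pit1dw/dw, grey Pit1+/+). Black bars in the first panel mark the brightest probe set of each array, which is Pomc itself in the 5 Pit1dw/dw pools. Pax7 stays at 6.22 or below in all 5 Prop1df/df pools, while Gh splits them into 3 high and 2 low.

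Pcsk1, which encodes the convertase PC1/3 that cuts pro-opiomelanocortin to ACTH, showed the greatest fall of the 6 genes in both comparisons of Prop1df/df pools. Pcsk1 had 5.98, 5.79, 6.08, 5.65 and 4.57 in Prop1df/df pools, against 7.76, 7.18, 7.21, 7.17 and 7.23 in Pit1dw/dw pools and 7.10, 8.03, 6.58, 7.29 and 6.66 in Pit1+/+ pools. No Prop1df/df pool reached any pool of the other groups, and Pit1dw/dw and Pit1+/+ pools overlapped. The means were 5.61 ± 0.61 in Prop1df/df, 7.31 ± 0.25 in Pit1dw/dw and 7.13 ± 0.59 in Pit1+/+ pools (SD, n = 5 each). Pcsk1 was 3.25-fold lower in Prop1df/df than in Pit1dw/dw pools (log2 change -1.70, SE 0.29, limma adjusted p = 0.00170). It was 2.87-fold lower than in Pit1+/+ pools (log2 change -1.52, SE 0.29, limma adjusted p = 0.00308). Between Pit1dw/dw and Pit1+/+ pools the log2 change was 0.18 (95% interval -0.44 to 0.80, limma adjusted p = 0.951). Both falls passed in 24 of 24 alternatives, and without the high Gh pools they were -2.20 (limma adjusted p = 0.00579) and -2.02 (limma adjusted p = 0.00723). Only 1 probe set reads Pcsk1, so settings that choose or average probe sets could not alter its log2 change. Melanotrophs and other endocrine cells also make Pcsk1, and the gene's own share in corticotrophs was not measured.

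The T-box factor Tbx19 (Tpit), which corticotrophs and melanotrophs need to switch on Pomc, differed between the 2 mutants. Tbx19 had 7.62, 8.07, 7.67, 8.33 and 7.88 in Prop1df/df pools, against 8.54, 8.91, 8.82, 8.71 and 8.31 in Pit1dw/dw pools and 7.93, 8.43, 7.72, 7.83 and 7.99 in Pit1+/+ pools. Only Prop1df/df pool 4, against Pit1dw/dw pool 5, made the mutants overlap, and only Pit1+/+ pool 2 reached into the Pit1dw/dw range. Tbx19 averaged 7.91 ± 0.29 in Prop1df/df, 8.66 ± 0.24 in Pit1dw/dw and 7.98 ± 0.27 in Pit1+/+ pools (SD, n = 5 each). It was 1.67-fold lower in Prop1df/df than in Pit1dw/dw pools (log2 change -0.74, SE 0.16, limma adjusted p = 0.0117). In Prop1df/df against Pit1+/+ pools the log2 change was -0.07 (95% interval -0.42 to 0.28, limma adjusted p = 0.844). Between Pit1dw/dw and Pit1+/+ pools it was 0.68 (95% interval 0.33 to 1.03), which did not pass over all genes (limma adjusted p = 0.0842). It passed there without Pit1+/+ pool 2 (0.79, limma adjusted p = 0.0402) and with arrays weighted by their quality (0.78, limma adjusted p = 0.00367). The second Tbx19 probe set lay between 2.70 and 3.42, near the lower quartile of the arrays, and did not pass in any comparison.

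Crhr1, the receptor for corticotropin-releasing hormone, followed the same order of groups. Crhr1 had 4.55, 4.46, 4.40, 4.98 and 5.16 in Prop1df/df pools, against 5.53, 5.83, 5.67, 5.63 and 5.35 in Pit1dw/dw pools and 4.94, 5.20, 4.54, 5.22 and 4.87 in Pit1+/+ pools. All 5 Pit1dw/dw pools lay above all pools of both other groups, which overlapped each other. The means were 4.71 ± 0.34 in Prop1df/df, 5.60 ± 0.18 in Pit1dw/dw and 4.96 ± 0.28 in Pit1+/+ pools (SD, n = 5 each). Crhr1 was 1.86-fold lower in Prop1df/df than in Pit1dw/dw pools (log2 change -0.89, SE 0.17, limma adjusted p = 0.00345). Against Pit1+/+ pools the log2 change of Prop1df/df was -0.25 (95% interval -0.60 to 0.11, limma adjusted p = 0.398), and between Pit1dw/dw and Pit1+/+ pools 0.65 (0.29 to 1.00, limma adjusted p = 0.122). The last passed only with array weights (0.63, limma adjusted p = 0.0250). The second Crhr1 probe set, between 2.69 and 3.72, gave -0.17, 0.24 and 0.40 in the same order of comparisons and passed in none.

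The differences of Tbx19 and Crhr1 between the mutants were smaller and did not pass without the Prop1df/df pools with high Gh. That leaves 2 Prop1df/df pools, and over all genes 503 passed rather than 1139. Whether the calls were lost through those pools or through the smaller group was not tested. The 3 pools with high Gh held the 3 lowest Crhr1 signals of their group. Without them the log2 change between Prop1df/df and Pit1dw/dw pools was -0.55 for Tbx19 (limma adjusted p = 0.248) and -0.53 for Crhr1 (limma adjusted p = 0.199). Without the high Prph pools it was -0.66 (limma adjusted p = 0.0872) and -0.78 (limma adjusted p = 0.0531). Both passed when any single pool was left out.

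Avpr1b, the vasopressin receptor of corticotrophs, was dim in all groups. Avpr1b had 2.96, 3.01, 3.19, 2.92 and 3.60 in Prop1df/df pools, against 2.99, 2.84, 3.01, 3.01 and 3.04 in Pit1dw/dw pools and 2.82, 3.15, 2.88, 2.98 and 3.13 in Pit1+/+ pools. These lie around the arrays' lower quartiles and overlapped among the 3 groups, with only Prop1df/df pool 5 above 3.20. The log2 change was 0.16 between Prop1df/df and Pit1dw/dw pools (limma adjusted p = 0.518), 0.15 between Prop1df/df and Pit1+/+ pools (0.515) and -0.01 between Pit1dw/dw and Pit1+/+ pools (0.995). At this signal a difference in the receptor may not be detectable.

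Neurod1, a basic helix-loop-helix factor that acts with Tbx19 and Pitx1 on Pomc in corticotrophs, did not pass in any comparison. Neurod1 had 9.33, 9.34, 9.55, 9.60 and 10.19 in Prop1df/df pools, against 10.47, 9.59, 9.32, 9.74 and 9.59 in Pit1dw/dw pools and 9.58, 9.15, 9.54, 9.06 and 8.68 in Pit1+/+ pools. The 3 groups overlapped. It averaged 9.60 ± 0.35 in Prop1df/df, 9.74 ± 0.43 in Pit1dw/dw and 9.20 ± 0.37 in Pit1+/+ pools (SD, n = 5 each). The log2 change was 0.40 between Prop1df/df and Pit1+/+ pools (95% interval -0.08 to 0.88, limma adjusted p = 0.298) and 0.54 between Pit1dw/dw and Pit1+/+ pools (0.06 to 1.02, limma adjusted p = 0.504). In Prop1df/df against Pit1dw/dw pools it was -0.14 (-0.62 to 0.34, limma adjusted p = 0.782). The second Neurod1 probe set gave 0.59 in both mutants against Pit1+/+ (limma adjusted p = 0.112 for Prop1df/df and 0.476 for Pit1dw/dw).

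**Figure D3:**
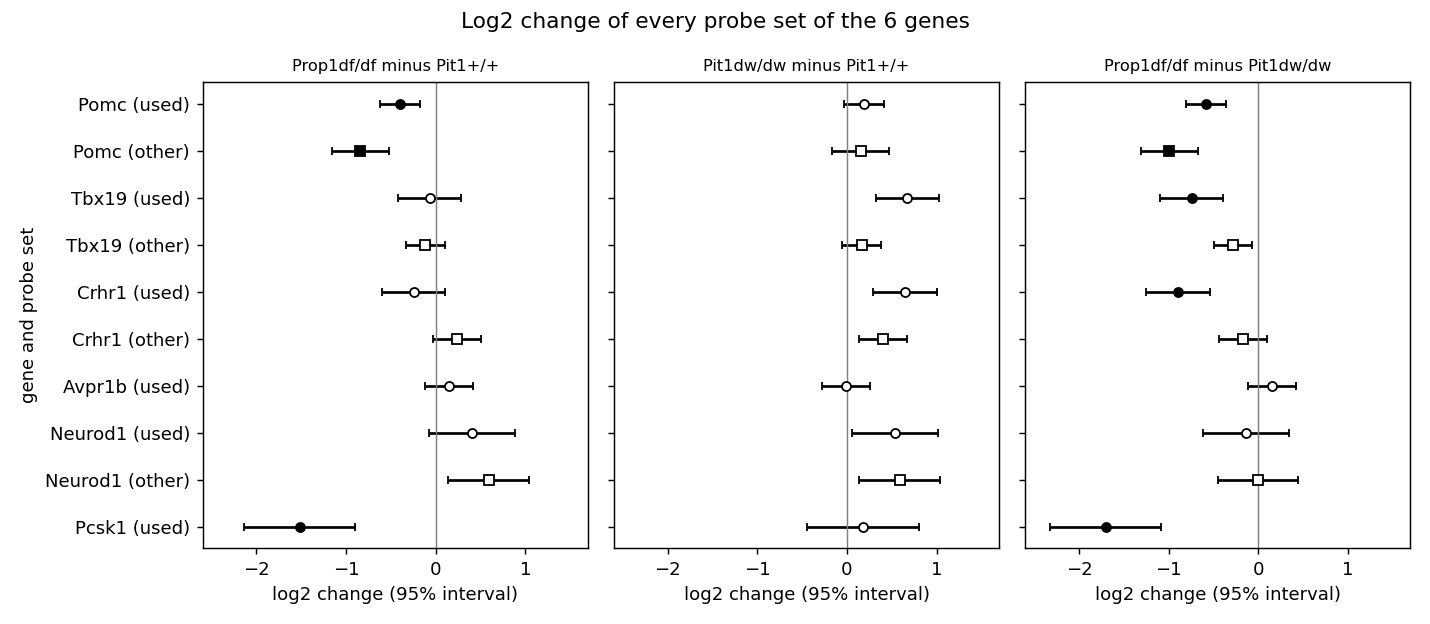
Log2 change of each of the 10 probe sets of the 6 genes in the 3 comparisons, with 95% intervals from the fit over 15 pools. Circles are the probe set used for the gene, squares the other one, and filled symbols passed the adjusted p threshold of 0.05. Pomc and Pcsk1 are filled in both Prop1df/df panels, Tbx19 and Crhr1 only against Pit1dw/dw, and no symbol is filled between Pit1dw/dw and Pit1+/+.

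Across the 6 genes, 4 passed as lower in Prop1df/df than in Pit1dw/dw pools and 2 did not pass, where 4.05% of all genes were lower and 6.26% changed in either direction. The median log2 change of the 6 was -0.66, against -0.02 over all genes, and 3 of the 6 did not overlap, against 8.5% of all genes. Between Prop1df/df and Pit1+/+ pools 2 were lower and 4 did not pass, where 7.31% of all genes were lower and 10.6% changed. There the median was -0.16, against -0.04 over all genes, and 1 of the 6 did not overlap, against 8.01%. Between Pit1dw/dw and Pit1+/+ pools none of the 6 passed in limma, where 0.77% of all genes did. At an unadjusted p under 0.05, 3 of the 6 passed there (8.46% of all genes), and 2 with array weights after adjustment, where 3.14% of all genes did. Their median was 0.37, against -0.02 over all genes, and 2 did not overlap, against 2.78%. Without the 3 high Gh pools 1 of the 6, Pcsk1, passed in each comparison of Prop1df/df pools, where 4.89% of all genes passed against Pit1+/+ and 2.76% against Pit1dw/dw. Without the high Prph pools it was again 1 of the 6, Pcsk1, where 8.97% and 4.1% of all genes passed.

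By level within each gene, the order of group means was Pit1dw/dw, Pit1+/+, Prop1df/df for Pomc, Tbx19, Crhr1 and Pcsk1, and Pit1dw/dw, Prop1df/df, Pit1+/+ for Neurod1. For Avpr1b it was Prop1df/df, Pit1+/+, Pit1dw/dw. Of the neighbours in these orders, Prop1df/df and Pit1+/+ differed past the threshold for Pomc and Pcsk1, and no other neighbours did. Over the 15 pools Tbx19 and Crhr1 had a Pearson r of 0.86, Pomc and Crhr1 of 0.80 and Pomc and Tbx19 of 0.70. After the group means were taken out these were 0.59, 0.52 and 0.44. Pomc and Pcsk1 had 0.68 over the pools and -0.25 after the group means were taken out. The values share arrays and RNA pools, and they are given as descriptions.

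The genes whose signals were most like each of the 6 over the 15 pools were ranked by Pearson r among genes brighter than the overall median of 4.37. For Pomc they were Ttc39a (0.963), Ssc4d (0.951) and Zfp503 (0.950), with 0.92, 0.88 and 0.84 after the group means were taken out. For Pcsk1 they were Usp27x (0.949), Qsox2 (0.940) and Kcna5 (0.937). For Tbx19 they were the nuclear receptor Nr0b1 (0.872), Cbln1 (0.865) and the kinase Pim1 (0.865). Crhr1 was nearest to Wwox (0.898), Kcnk1 (0.895) and Cracdl (0.894), and Neurod1 to Cachd1 (0.867), Itgbl1 (0.798) and Efs (0.769). Avpr1b was nearest to Dach2 (0.836), Fgf20 (0.825) and Trdn (0.805), on values near background.

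Other genes of prohormone processing were read as a list of 9, of which 8 were measured and Pcsk2 was not analysed here. On the brightest probe set of each gene, which all counts of lists use, 3 fell and none rose between Prop1df/df and Pit1dw/dw pools, and 2 fell and none rose between Prop1df/df and Pit1+/+ pools. Counts of this and later lists, markers included, stand beside the shares of all genes that changed. These were 6.26% for Prop1df/df against Pit1dw/dw, 10.6% for Prop1df/df against Pit1+/+ and 0.77% for Pit1dw/dw against Pit1+/+ pools. The granin Scg3, which sorts cargo into granules, averaged 9.67 in Prop1df/df, 10.45 in Pit1dw/dw and 10.59 in Pit1+/+ pools. Its log2 change was -0.78 in Prop1df/df against Pit1dw/dw pools (limma adjusted p = 0.00182) and -0.92 against Pit1+/+ pools (0.000376). Scg5, the chaperone of Pcsk2, changed by -0.66 (limma adjusted p = 0.00465) and -0.60 (0.00702). Pcsk1n, which encodes the inhibitor of the Pcsk1 convertase, had 6.29, 7.87, 8.15, 8.32 and 7.48 in Prop1df/df pools, against 9.04, 9.51, 9.57, 9.55 and 9.39 in Pit1dw/dw pools. It was lower by a log2 change of -1.79 (limma adjusted p = 0.0227), a call lost when Prop1df/df pool 1 or 5 or Pit1dw/dw pool 2, 3 or 4 was left out. Cpe, the carboxypeptidase that trims the cut ends, lay between 12.23 and 12.43 in all 15 pools. Without the high Gh pools Scg3 still passed, Scg5 changed by -0.68 (limma adjusted p = 0.0816) and -0.61 (0.0862), and Pcsk1n by -1.52 (0.213). Without the high Prph pools Pcsk1n changed by -2.12 (limma adjusted p = 0.0853). Of the list's 8 other probe sets, each fitted alone, 1 of Ctsl, a lysosomal protease that also cuts prohormones, changed by -2.99 against Pit1dw/dw (limma adjusted p = 1.34e-10) and -2.97 against Pit1+/+ (1.39e-10). The brighter Ctsl probe set gave -0.0078 and 0.21. Another, of the carboxypeptidase Cpd, rose by 0.58 against Pit1dw/dw (limma adjusted p = 0.0274). None of the 8 passed between Pit1dw/dw and Pit1+/+ pools in limma, nor at an unadjusted p under 0.05. The median of the list was -0.13 and -0.12 in the Prop1df/df comparisons and 0.05 in the other.

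Transcription factors of the lineage or of the Pomc promoter made a list of 18, of which 15 were measured. In Prop1df/df against Pit1+/+ pools 1 rose and 3 fell. Neurod4, a helix-loop-helix factor of pituitary endocrine cells, fell by 1.97 on the log2 scale (limma adjusted p = 0.0166), with 8.58, 9.45, 10.55, 7.27 and 7.91 in Prop1df/df pools and 10.27 to 11.04 in Pit1+/+ pools. It also fell by 2.87 in Pit1dw/dw against Pit1+/+ pools (limma adjusted p = 0.00881), the only call of the list in that comparison. Without the high Gh pools Neurod4 changed by -3.14 in Prop1df/df against Pit1+/+ pools (limma adjusted p = 0.000686), since pools 1 to 3 held the 3 highest Neurod4 signals of their group. The orphan receptors Nr4a3 and Nr4a2, relatives of the NGFI-B factor that acts on Pomc below Crhr1, changed by -0.82 (limma adjusted p = 0.0337) and -0.60 (0.0358) against Pit1+/+. NGFI-B itself, Nr4a1, did not pass, at -0.42 against Pit1+/+ (limma adjusted p = 0.248) and -0.16 against Pit1dw/dw (0.725). Leaving out 1 pool ended the Nr4a3 call for 7 of the 10 pools and the Nr4a2 call for 6 of them, and without the high Gh pools they changed by -0.68 (limma adjusted p = 0.322) and -0.59 (0.239). None of the 5 other probe sets of Nr4a2 passed on its own. Against Pit1dw/dw pools Nr4a3 changed by -0.88 (limma adjusted p = 0.0337), or -0.73 without the high Gh pools (0.350), and Stat3 rose. Stat3, the factor below the LIF receptor, rose by 1.47 against Pit1+/+ (limma adjusted p = 0.000346) and by 1.73 against Pit1dw/dw (0.000113) on its brightest probe set. Its 3 other probe sets gave -0.07, 0.59 and 0.10 against Pit1+/+, of which the 0.59 passed (limma adjusted p = 0.0334), and the probe set of nearest brightness was the -0.07. The list's 35 other probe sets gave 2 calls up and 1 down for Prop1df/df against Pit1+/+, none between the mutants and 1 down for Pit1dw/dw against Pit1+/+. Pitx1, the homeodomain factor that works with Tbx19 on Pomc, had a log2 change of -0.45 against Pit1dw/dw pools and -0.31 against Pit1+/+ pools and did not pass, except with array weights against Pit1+/+ (-0.50, limma adjusted p = 0.0406).

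Ligands and signalling genes of corticotropin-releasing hormone and vasopressin made a list of 25, all measured. Against Pit1+/+ pools 1 rose and 5 fell in Prop1df/df pools. Urocortin 3 (Ucn3), a ligand of the second receptor of the family, averaged 2.88 in Prop1df/df, 2.78 in Pit1dw/dw and 4.16 in Pit1+/+ pools, so that both mutants lay under the arrays' lower quartiles, where a fall may be understated. It fell by 1.28 on the log2 scale in Prop1df/df (limma adjusted p = 0.00108) and fell by 1.39 in Pit1dw/dw pools (0.00365), both against Pit1+/+. Of the cyclic AMP pathway below Crhr1, the protein kinase A subunit Prkar2b changed by -0.87 (limma adjusted p = 0.00422), the cyclase Adcy6 by -0.60 (0.00800) and the cyclic AMP-responsive factor Crem by -0.82 (0.0184). Prkar2b passed in 24 of 24 alternatives, whereas the Crem call was lost without Prop1df/df pool 1 or 5 or Pit1+/+ pool 2. Without the high Gh pools Adcy6 changed by -0.59 (limma adjusted p = 0.102) and Crem by -0.92 (0.0858). The 3 other Crem probe sets gave -0.11, 0.53 and -0.63, none of which passed, and the mean over all 4 gave -0.26 (limma adjusted p = 0.180). On the brightest probe sets only Crhbp of the 25 genes passed between Prop1df/df and Pit1dw/dw pools, where 6.26% of all genes did. Crhbp, the binding protein of corticotropin-releasing hormone, rose by 0.73 (limma adjusted p = 0.0356) at signals of 3.46 to 4.11 in Prop1df/df and 2.76 to 3.16 in Pit1dw/dw pools. That call was lost under 12 of 23 alternatives, among them without the high Gh pools (0.56, limma adjusted p = 0.377). Of 39 other probe sets, dim ones of the G protein subunit Gnas (-0.82, limma adjusted p = 0.00313) and of the kinase subunit Prkar1a (-0.76, 0.00382) also passed there, and 3 were lower in Prop1df/df against Pit1+/+ pools. The hypothalamic ligands Crh and Avp were dim in all pools, at 4.21 or below, and did not pass.

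Glucocorticoid receptors, their enzymes and glucocorticoid-induced genes made a list of 17, all measured. Between Prop1df/df and Pit1dw/dw pools 1 rose and 3 fell, and between Prop1df/df and Pit1+/+ pools 3 rose and 2 fell. Hsd11b1, the enzyme that regenerates active glucocorticoid, averaged 6.61 in Prop1df/df, 8.02 in Pit1dw/dw and 7.72 in Pit1+/+ pools. Its log2 change was -1.41 against Pit1dw/dw (limma adjusted p = 0.000799) and -1.11 against Pit1+/+ (0.00392), and both calls held in 24 of 24 alternatives. Hsd11b1 has a single probe set, so settings that choose or average probe sets could not alter its log2 change. The mineralocorticoid receptor Nr3c2 changed by -0.74 against Pit1+/+ (limma adjusted p = 0.00479). Annexin A1 (Anxa1), a glucocorticoid-induced protein made by the pituitary's supporting cells, rose by 0.96 against Pit1+/+ (limma adjusted p = 0.0132). The metallothioneins Mt2 and Mt1 changed by -1.25 (limma adjusted p = 0.00530) and -0.96 (0.0427) against Pit1dw/dw, the Mt1 call being lost when any of 7 single pools was left out. Without the high Gh pools Nr3c2 changed by -0.60 (limma adjusted p = 0.113), Anxa1 by 0.96 (0.133), Mt2 by -1.28 (0.0721) and Mt1 by -1.04 (0.205). The zinc finger factor Klf9 did not pass on its brightest probe set (0.089 against Pit1+/+), but others of it, which were the 2 calls among the list's 23 other probe sets there, gave 1.15 (limma adjusted p = 0.00156) and 1.05 (0.00584).

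The glucocorticoid receptor Nr3c1, through which the adrenal hormone restrains Pomc, depended on the probe set. On the brightest it averaged 9.58 in Prop1df/df, 8.94 in Pit1dw/dw and 8.84 in Pit1+/+ pools, a rise of 0.64 against Pit1dw/dw (limma adjusted p = 0.0452) and of 0.74 against Pit1+/+ (0.0143). A second probe set of nearly the same brightness gave -0.35 and -0.26, and the mean over its 6 probe sets gave 0.03 (limma adjusted p = 0.903) and 0.09 (0.644). The call against Pit1dw/dw was also lost when any of 8 single pools was left out, and without the high Gh pools the change was 0.63 against Pit1dw/dw (limma adjusted p = 0.223) and 0.73 against Pit1+/+ (0.108). Genes of LIF and IL-6 family signalling, a pathway that stimulates Pomc, made a list of 10, all measured. On the brightest probe sets none of them passed in any comparison in limma, nor at an unadjusted p under 0.05. Among their 14 other probe sets, 1 of Il6st, the signalling receptor that the family shares, rose by 1.09 against Pit1+/+ (limma adjusted p = 0.00105) and by 1.12 against Pit1dw/dw (0.000997), and another by 0.46 against Pit1+/+ (0.0368). The brightest Il6st probe set gave 0.24 and 0.16. In Pit1dw/dw against Pit1+/+ pools no gene of the glucocorticoid list passed in limma. There 6 of the 17 had an unadjusted p under 0.05, where 8.46% of all genes did. Of the 6, Nr3c2 was lower, and Mt2, Mt1, Fkbp5, Tsc22d3 and Sgk1 were higher.

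With the Xist level as a covariate, 5 calls of these lists between Prop1df/df and Pit1dw/dw pools were lost: Pcsk1n (-1.58, limma adjusted p = 0.0724), Nr4a3 (-0.82, 0.0935), Crhbp (0.64, 0.105), Mt1 (-0.75, 0.108) and Nr3c1 (0.59, 0.117). Without the high Prph pools the log2 change between those groups was -1.16 for Mt2 (limma adjusted p = 0.0665), -0.92 for Mt1 (0.183), 0.73 for Nr3c1 (0.0611) and 0.73 for Crhbp (0.164), and Nr4a2 gave -0.38 against Pit1+/+ (0.240).

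**Figure D4:**
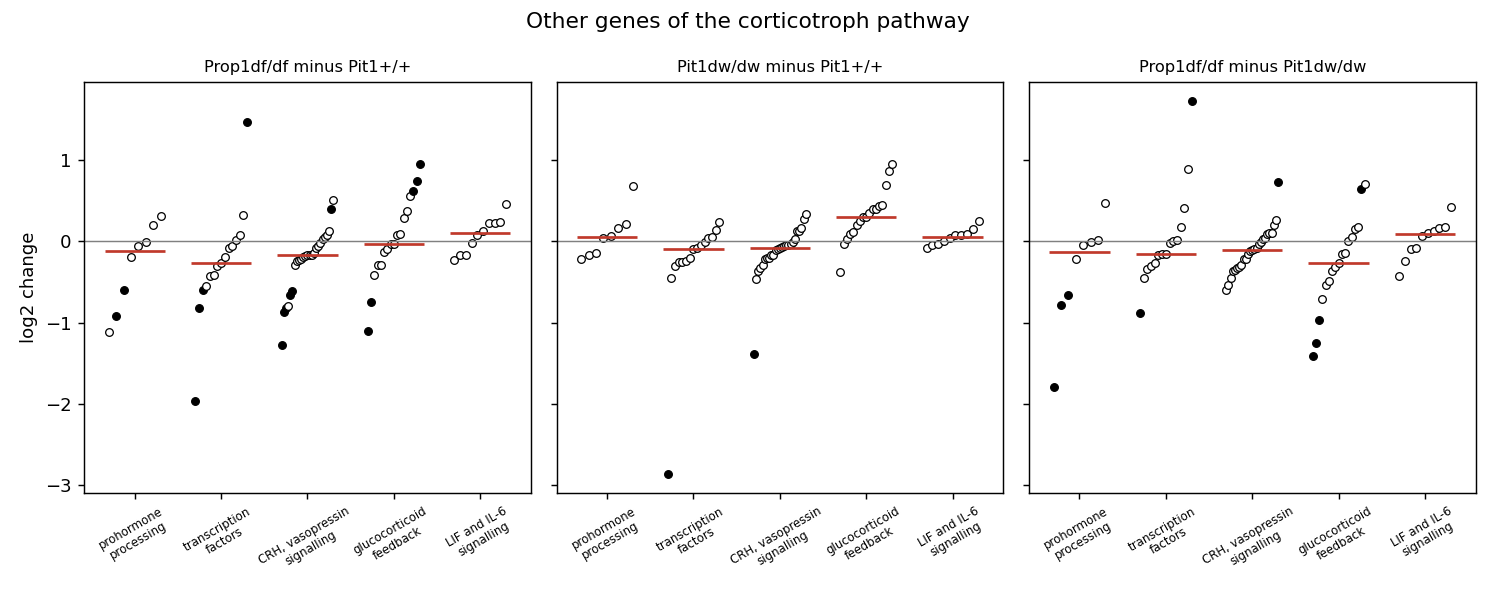
Log2 change of every measured gene of the 5 other lists in the 3 comparisons, with 1 point per gene, filled where the adjusted p passed 0.05, and red bars at the list medians. Neurod4 at -2.87 and Ucn3 at -1.39 are the 2 filled points between Pit1dw/dw and Pit1+/+, and the medians stay between -0.27 and 0.30 in all panels.

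Markers of other tissues moved with some pools and groups. Of 9 measured ganglion markers none passed in any comparison in limma, nor at an unadjusted p under 0.05, and their mean level lay between 4.97 and 9.53 in Prop1df/df, 5.55 and 9.08 in Pit1dw/dw and 4.73 and 9.74 in Pit1+/+ pools. Of 5 measured bone and cartilage markers 1 rose in Prop1df/df against Pit1dw/dw pools, 2 rose against Pit1+/+ and none passed between the other groups. The cartilage collagen Col2a1 had 8.28, 8.73, 8.21, 8.51 and 10.51 in Prop1df/df pools, 6.71 to 7.42 in Pit1dw/dw pools and 6.23 to 7.57 in Pit1+/+ pools. Of 5 measured markers of the Pit1 lineage 4 fell in Prop1df/df and 5 in Pit1dw/dw against Pit1+/+ pools, and 1 (Gh) was higher in Prop1df/df than in Pit1dw/dw pools. Of 5 gonadotroph markers 4 were lower in Prop1df/df than in Pit1dw/dw pools, 3 were lower in Prop1df/df than in Pit1+/+ pools and 2 were higher in Pit1dw/dw than in Pit1+/+ pools. Among neural lobe markers 2 of 6 fell in Prop1df/df against Pit1+/+ pools, and among endothelial markers 1 of 5 fell in Prop1df/df against each other group. The measured progenitor (4), red cell (2) and muscle (4) markers did not pass in any comparison. Prop1df/df pool 5, which had the highest Col2a1, also had the lowest Pcsk1. The Gapdh difference between 3' and 5' control probe sets, a measure of RNA quality, lay between 1.84 and 2.56 in Prop1df/df, 1.75 and 2.57 in Pit1dw/dw and 1.96 and 2.97 in Pit1+/+ pools. The part of these tissues and of RNA quality in the results above was not tested.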

How the data were processed

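Newborn pituitary RNA pools were hybridised to Affymetrix Mouse Genome 430 2.0 arrays, 1 array a pool, per the labels. The deposited values are log2 signals that the authors made with RMA, per the submitters' processing notes, and RMA corrects background, normalises by quantiles and summarises probes. No source used here gives its version or a genome build. The log2 values run between 1.83 and 14.83.

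Of 45101 probe sets, 64 controls were set aside, and 34945 of the rest name 1 gene in the annotation given. Probe sets with several names (932) or none (9160) were not analysed here. Each of 18193 genes was represented by the probe set brightest on average over 15 arrays, and each probe set was also fitted alone. The limma package (version 3.58.1, R version 4.3.3) fitted the 3 group means (lmFit and eBayes, two-sided), with Benjamini-Hochberg adjustment over all genes in a comparison and a threshold of 0.05. Log2 changes have the fit's SE and group means the SD over 5 pools. Nothing in the labels says that the pools came from separate litters, so p-values measure the spread between these pools.

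The 6 genes, 5 other lists and 10 marker lists were chosen with earlier results of these data known. Named are the 6 genes whatever their result, up to 4 genes past the threshold per other list and comparison, the genes Nr3c1, Cpe, Crh, Avp and Pitx1, the 3 genes most like each of the 6, and markers that moved with them. Nr4a1 is named beside its relatives. The procedure was tested on simulated data. Replicate numbers were not used to pair the pools in the main fit. Each of 15 pools was left out in turn, and 13 other settings were tried: arrays centred on medians, a second quantile normalisation, the mean over a gene's probe sets, each probe set fitted alone, a filter on dim probe sets, leaving out probe sets with suffixes, arrays weighted by quality, a fit of the 2 compared groups alone, a prior variance that follows intensity and is robust, a replicate block, the ganglion mean or Xist as covariate, and leaving out pools with high Prph. The closing section gives those that changed a result. Leaving out the 3 Prop1df/df pools with Gh above 12 was chosen after seeing the data. Promoters came from RefSeq (GRCm38.p6). Figures were drawn with matplotlib 3.10.9.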

Additional observations from a re-analysis of the deposited data

Results flagged for a closer look

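A search for single pools far from the other 4 of their group, over 42 sets of 5 pools, found 8 (19%), where chance gives about 1 in 20. The sets share pools, both Pomc probe sets were counted, and Gh and Prph, whose pools stood apart, were included. The share is therefore a description and no test against chance. Both Pomc probe sets were low in Pit1+/+ pool 5, at 13.74 (next lowest 13.97) and 12.42 (next lowest 12.94). The Pcsk1 inhibitor Pcsk1n was also low in that pool, at 6.80. Without this pool more genes passed between Prop1df/df and Pit1+/+ pools, 3258 against 1920. Pcsk1 was low in Prop1df/df pool 5, at 4.57 (next 5.65), and high in Pit1dw/dw pool 1, at 7.76 (next 7.23). The same Pit1dw/dw pool was low in the dopamine receptor Drd2, at 6.14 (next 6.78). Pax7 was lowest in Prop1df/df pool 1, at 5.45 (next 6.0), the pool that also had the lowest Pomc signal. Avpr1b was low in Pit1dw/dw pool 2, at 2.84 (next 2.99), which is near background. The ganglion marker Prph was high in Pit1+/+ pool 3, at 10.59 (next 3.74).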

How the results depend on the processing

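Of the 6 genes, 4 passed between Prop1df/df and Pit1dw/dw pools whichever pool was left out, but 1 (Pcsk1) without the pools with Prph above 7 and 1 without the Prop1df/df pools with Gh above 12. Against Pit1+/+ 2 passed for Prop1df/df, and 1 (Pcsk1) after a second quantile normalisation, without probe sets that can match several transcripts (suffix _x_at, _s_at or _a_at, which removes Pomc), with only the groups compared, without the Prph pools, without the Gh pools, and without Prop1df/df pool 1 or Pit1+/+ pool 1, 2 or 4. Between Pit1dw/dw and Pit1+/+ pools 0 passed, but 2 with array weights, and 0 to 1 with a pool left out. Over all genes, 1920 passed for Prop1df/df against Pit1+/+, but 4297 with array weights, 2938 with the ganglion mean as a covariate, 890 without the Gh pools, and 1401 to 3258 with a pool left out, the highest without Pit1+/+ pool 5. For Prop1df/df against Pit1dw/dw 1139 passed, but 2390 with array weights, 746 without the Prph pools, 503 without the Gh pools, and 826 to 1345 with a pool left out. For Pit1dw/dw against Pit1+/+ 140 passed, but 571 with array weights, 51 without the Prph pools, and 83 to 161 with a pool left out (at most 93 without Pit1dw/dw pool 2, 4 or 5 or Pit1+/+ pool 2 or 4). With the replicate numbers as a block the 3 counts were 2138, 1313 and 137 and no call on the 6 genes changed. Same-numbered pools had correlations of -0.31 to 0.67, and in each comparison 2 of 5 were nearest to their own number. Pool 3 was so in all 3 comparisons (0.67, 0.64 and 0.51), and pool 3 of each group had Prph above 7. Whether pools of the same number share a batch or dissection cannot be told from this, and the labels name no pairs.

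Small changes that did not pass turned sign. For Prop1df/df against Pit1+/+, Tbx19 was 0.073 with array weights, 0.12 without the Gh pools, and -0.17 to 0.045 with a pool left out, and Crhr1 was 0.11 without the Gh pools. In that comparison Pitx1 was 0.097 without the Gh pools. Crh was 0.056 without the Prph pools, 0.038 without the Gh pools, and -0.12 to 0.064 with a pool left out. Cpe was 0.0057 with array weights, 0.014 without the Prph pools, 0.0049 with the ganglion covariate, 0.022 without the Gh pools, and -0.031 to 0.024 with a pool left out. For Pit1dw/dw against Pit1+/+, Avpr1b was 0.0076 after centring arrays on their medians, 0.047 with array weights, 0.023 with the ganglion covariate, and -0.054 to 0.029 with a pool left out. There Cpe was -0.0049 after a second quantile normalisation, Pitx1 was -0.063 with array weights and -0.093 to 0.24 with a pool left out, and Nr3c1 was -0.026 to 0.20 with a pool left out. For Prop1df/df against Pit1dw/dw, Neurod1 was 0.15 without the Gh pools and -0.29 to 0.043 with a pool left out. Stat3, without the same suffixes, was -0.067 against Pit1+/+ and -0.12 against Pit1dw/dw, since another of its probe sets was then read. The other causes were not tested. Avpr1b had no value under the filter on dim probe sets. Near-background signals for Avpr1b, Crh and Avp, and the ceiling above Pomc, limit what these arrays can show.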
